A study of Mus musculus with 10 samples.

Results

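The visual cycle retinoid genes were followed in 2 pooled mouse RNAs. The set comprises 10 genes: Rpe65, Lrat, Rgr, Rrh, Rlbp1, Rdh5, Rdh12, Rbp3, Stra6 and Dhrs7. A gene was taken as measured where a probe of the array had it as its single symbol in the platform annotation. Each of 9 of the genes had 1 such probe, out of 13840 genes named by the annotation, and Lrat, the lecithin retinol acyltransferase of the pathway, was not analysed here. Transcripts were measured on single-channel Applied Biosystems arrays with chemiluminescent detection, as one platform of a comparison between platforms. One RNA was a pool of adult C57/B6 retina from 350 mice, and the other was a pool of cortex from 19 mice at postnatal day 1, which served as the reference tissue. The cortex mice are Swiss-Webster in the series text and C57/B6 in the sample descriptions, and this was not settled here. Each RNA was hybridised to 5 arrays. These were repeats of 1 pool, so the p-values measure the spread between arrays and not between animals, and tissue cannot be told apart from age or from any difference in strain.

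Light turns the cis form of retinal, the chromophore of the visual pigments, into the all-trans form, and the visual cycle turns it back. Photoreceptors reduce all-trans-retinal to retinol, which crosses the interphotoreceptor matrix to the retinal pigment epithelium, a pigmented sheet behind the photoreceptors. There it is esterified by the Lrat product, isomerised to a cis retinol by RPE65 and oxidised to cis-retinal, which travels back to the outer segments. Müller glia, the radial glia of the retina, are held to take part in a second route that serves cones. In bulk RNA of this kind, fewer cells of a type and less RNA per cell cannot be told apart.

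Of the 9 measured genes, 8 were called higher in retina, 0 were called lower and Stra6 was not called. A probe was called when its limma p-value, Benjamini-Hochberg adjusted over all 33012 probes, was under 0.05 and the tissues differed at least 2-fold. By the same rule 12.1% of all probes passed as higher and 13.3% as lower. Among named genes, taken at 1 probe each, the shares were 14.2% and 14.7%. The median difference, retina minus cortex in log2 units, was 5.86 over the 9 genes, 0.00 over the named genes and -0.01 over all probes. For all 9 genes the 5 retina values lay above the 5 cortex values, which held for 19.2% of all probes. The differences ran from 10.98 for Rbp3 down to 0.79 for Stra6. Values below are log2 intensities after quantile normalization, which gives all arrays 1 distribution, and the levels of different members were not compared with each other. With no detection calls at hand, the 846 probes named for olfactory receptors served as a yardstick of dim signal. The level that 95% of them stay under, taken per array, averaged 11.09 in retina and 11.12 in cortex, and values below it are called dim. Of the 13840 named genes behind the shares above, 5700 were dim in both tissues, against 0 of the 9 measured genes.

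**Figure D1:**
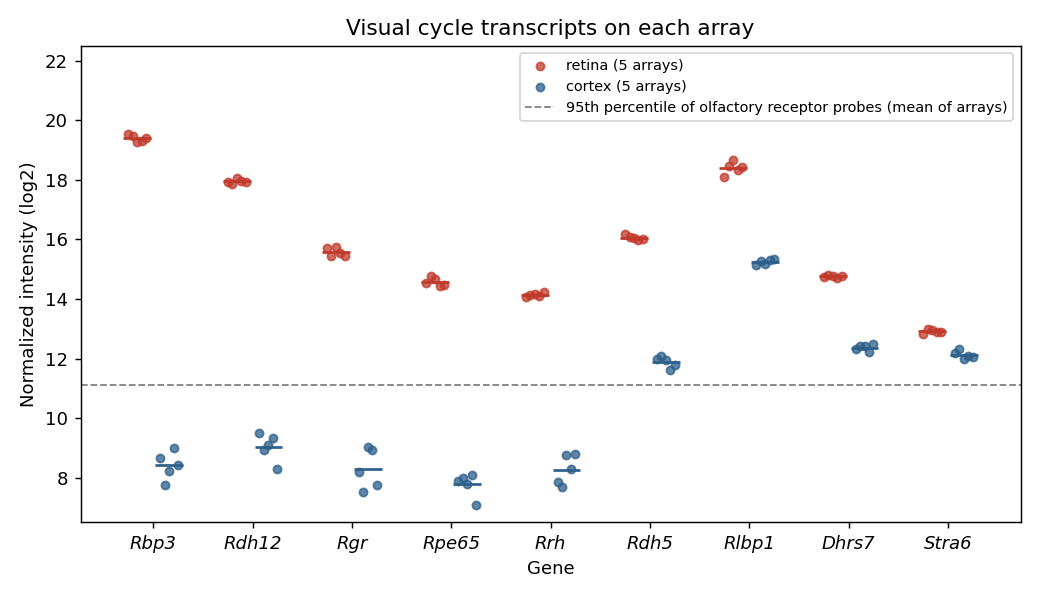
Normalized log2 intensity of the 9 measured visual cycle genes on every array, with 5 retina and 5 cortex arrays per gene, a short line at each tissue mean, and a dashed line at the level that 95% of olfactory receptor probes stay under. Retina points lie above cortex points for every gene, and the cortex points of Rbp3, Rdh12, Rgr, Rpe65 and Rrh lie under the dashed line.

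The carriers Rbp3 and Rlbp1 were both called higher in retina. Rbp3 (probe 930752) encodes the interphotoreceptor retinoid-binding protein, which photoreceptors secrete and which shuttles retinoids through the matrix. It stood at 19.54, 19.46, 19.26, 19.30 and 19.40 on retina arrays 1 to 5 and at 8.65, 7.75, 8.23, 9.0 and 8.41 on the cortex arrays. The retina values were close together and the cortex values were low and scattered. Its difference of 10.98 (SE 0.16, limma, adjusted p = 3.65e-18) was measured against dim cortex values. As deposited, the Rbp3 probe read 491900 to 583200 intensity units in retina and 235.2 to 572.7 in cortex.

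Rlbp1 (probe 626985) encodes CRALBP, the carrier of cis retinoids inside pigment epithelium and Müller glia. It was bright in both tissues, at 18.10, 18.48, 18.65, 18.34 and 18.45 in retina and at 15.14, 15.29, 15.18, 15.32 and 15.34 in cortex. Retina array 1 gave its lowest retina value, still well above every cortex array. The difference was 3.15 (SE 0.081, limma adjusted p = 3.35e-15), or 8.89-fold. Its deposited intensity in cortex, 41440 to 48120, lay above the dim range.

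The isomerase gene Rpe65 (probe 645348), whose product makes cis retinol from retinyl esters in the pigment epithelium, was at 14.54, 14.76, 14.68, 14.45 and 14.46 in retina. In cortex it was at 7.89, 8.0, 7.78, 8.09 and 7.08. The lowest of these was cortex array 5, and the tissues were far apart on every array. The difference was 6.81 (SE 0.18, limma adjusted p = 4.24e-15), which as a fitted ratio is 112-fold. As deposited, the probe read 18700 to 24180 intensity units in retina and 150.4 to 294.3 in cortex.

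The retinol dehydrogenase genes Rdh12 and Rdh5, and Dhrs7, belong to the short-chain dehydrogenase family. Among them Rdh12 was dim in cortex, and Rdh5 and Dhrs7 were not. Rdh12 (probe 354837), whose enzyme reduces retinal in photoreceptor inner segments, was at 17.93, 17.86, 18.06, 17.97 and 17.94 in retina and at 9.48, 8.93, 9.11, 9.34 and 8.28 in cortex, a difference of 8.92 (SE 0.16, limma adjusted p = 3.80e-17). Rdh5 (probe 754399), the pigment epithelium enzyme that oxidises cis retinol to cis-retinal, was at 16.17, 16.09, 16.06, 15.99 and 16.02 in retina. Its cortex values of 11.98, 12.10, 11.94, 11.61 and 11.79 were all above the dim range, so that its difference of 4.18 (SE 0.078, limma adjusted p = 6.27e-17) had signal above that range on both sides. Dhrs7 (probe 298000), a broadly expressed dehydrogenase of the same family whose part in the cycle is not established, varied least over the retina arrays, with values of 14.74, 14.82, 14.76, 14.71 and 14.78. It stood at 12.33, 12.42, 12.42, 12.20 and 12.48 in cortex, 2.39 below retina (SE 0.061, limma adjusted p = 2.77e-15), or 5.26-fold.

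Both non-visual opsin genes of the set were higher in retina. Rgr (probe 825422) encodes the retinal G protein-coupled receptor, an opsin of pigment epithelium and Müller glia that binds all-trans-retinal and photoisomerises it. It was at 15.70, 15.44, 15.74, 15.55 and 15.46 in retina and at 8.18, 7.53, 9.03, 8.93 and 7.76 in cortex, where it had the widest spread of the 9 genes (SD 0.675). Rrh (probe 355650) encodes peropsin, an opsin of the pigment epithelium, and was at 14.06, 14.13, 14.16, 14.09 and 14.23 in retina and at 7.86, 7.67, 8.74, 8.30 and 8.78 in cortex. The differences were 7.29 (SE 0.24, limma adjusted p = 6.19e-14) for Rgr and 5.86 (SE 0.20, limma adjusted p = 1.16e-13) for Rrh, and neither gene's tissues overlapped.

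Stra6 (probe 617272), the cell-surface receptor for retinol bound to its plasma carrier, was the gene that was not called. It was at 12.84, 13.01, 12.96, 12.88 and 12.91 in retina and at 12.19, 12.33, 11.99, 12.08 and 12.06 in cortex. The groups did not overlap and the adjusted p was 2.16e-07 with limma, but the difference of 0.79 (SE 0.080), or 1.73-fold, was short of the 2-fold minimum. Tested against a 1.5-fold difference with limma's treat in place of that minimum, Stra6 passed as the ninth gene (adjusted p = 0.0438). As deposited, its intensities overlapped slightly, at 5729 to 7281 units in retina and 4789 to 5782 in cortex. Without normalization its difference was 0.39, where the median of all probes was -0.41, and relative to that shift it was 0.81.

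The order of the differences is a description, with no test, since neighbours in it are found by sorting the same values. Among the 4 genes that were not dim in either tissue, Rdh5 stood above Rlbp1 by 1.03, Rlbp1 above Dhrs7 by 0.76 and Dhrs7 above Stra6 by 1.61. The within-array ratio of each of these pairs varied by an SD of 0.046 to 0.247 over the arrays of a tissue. For the 5 genes that were dim in cortex the data give lower bounds, and no order is drawn among them.

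The size of the larger differences was limited by dim signal in cortex. Rbp3, Rdh12, Rgr, Rpe65 and Rrh were dim in cortex, and none of the 9 genes was dim in retina. The SD over cortex arrays was 0.402 to 0.675 for these 5 genes and 0.088 to 0.188 for the other 4, while in retina it was 0.043 to 0.205 over all 9. With values under the yardstick raised to it on each array, the difference became a lower bound of 8.27 for Rbp3, 6.83 for Rdh12, 4.46 for Rgr, 3.46 for Rpe65 and 3.02 for Rrh. Rpe65 was then at least 11.0-fold and Rrh at least 8.08-fold higher in retina. The median of 5.86 over the 9 genes was the difference of Rrh before raising, and so rests on dim cortex values. The differences of Rdh5, Rlbp1, Dhrs7 and Stra6 did not move. The bounds of Rpe65 and Rrh lay under the 4.18 of Rdh5, so they do not settle the order of these genes.

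**Figure D2:**
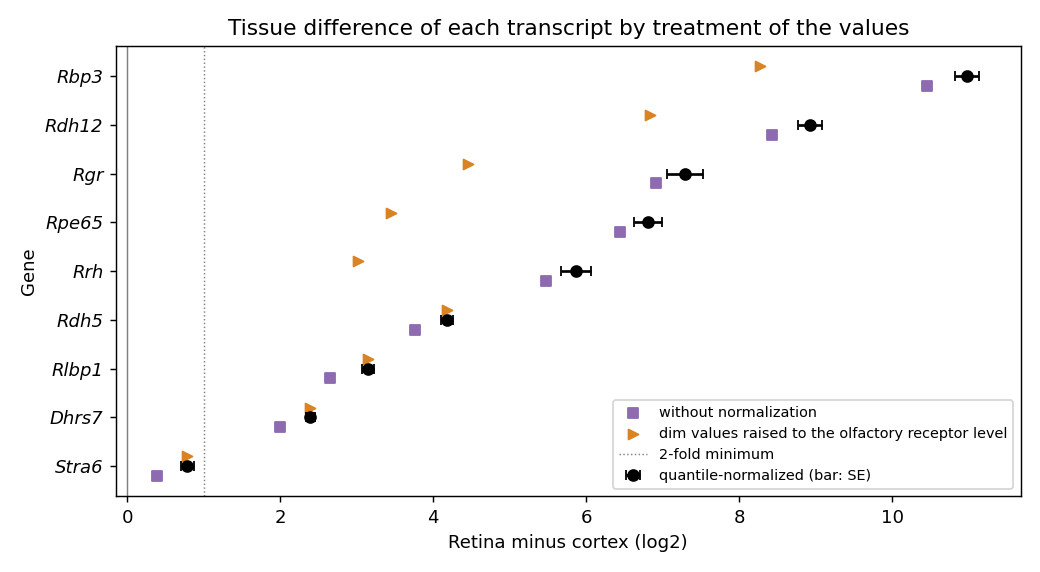
Retina minus cortex difference (log2) of each gene after quantile normalization (circles, bar SE), without normalization (squares) and with dim values raised to the olfactory receptor level (triangles), with a dotted line at the 2-fold minimum. The 5 upper genes drop to between 3.02 and 8.27 when dim values are raised, the 4 lower genes stay in place, and Stra6 is the one gene left of the dotted line.

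The sequences before the start of 3 of the called genes are shown because they hold TAATCC, or GGATTA on the other strand, the letters that the photoreceptor and pigment epithelium homeodomain factors Crx and Otx2 are known to bind. They are from RefSeq (GRCm38.p6), 5′ to 3′ on the strand of the gene, with the match in capitals. Rbp3 is shown at chr14:33953753-33954002 (plus strand) and Rgr at chr14:37049015-37049264 (minus strand), each the 250 bases before the start. For Rpe65 only the 30 bases around the match, chr3:159599127-159599156 (plus strand), are shown, since a longer transcript model covers part of its window.
Rbp3: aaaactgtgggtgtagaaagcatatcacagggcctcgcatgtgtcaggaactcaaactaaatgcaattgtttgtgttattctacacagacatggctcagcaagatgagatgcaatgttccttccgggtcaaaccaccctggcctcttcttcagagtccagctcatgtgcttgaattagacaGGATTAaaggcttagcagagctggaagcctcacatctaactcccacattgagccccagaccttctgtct
Rgr: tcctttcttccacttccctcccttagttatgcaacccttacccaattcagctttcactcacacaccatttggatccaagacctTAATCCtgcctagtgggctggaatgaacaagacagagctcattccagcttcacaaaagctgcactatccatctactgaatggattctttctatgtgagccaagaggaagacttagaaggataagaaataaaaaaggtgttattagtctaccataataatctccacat
Rpe65: ctcctccaataaGGATTAgattgcatacaa

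The match began 69 bases before the start in Rbp3, 167 in Rgr and 42 in Rpe65. It was searched on both strands in windows of 300 bases, from 250 before to 50 after the start. All 9 measured genes had at least 1 window, 12 in all, of which 3 held the letters. They were in 7.06% of the 32851 windows that RefSeq gives. By gene, 7.56% of the 11164 named genes with a window had them, and 10.5% of the 1593 of these that were called higher in retina. Rdh12 had no match. Of the other letters searched, TAATTA (5.29% of all windows), TGACCT (16.3%) and CACGTG (7.15%), none was in a window of the 9 genes. These are matches of letters and not binding sites.

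Other genes with the most similar profiles were found by centring each gene's 10 values on their mean and taking the root mean square distance over the 10 arrays, so that likeness here means a similar tissue difference and similar array scatter. Nearest to Rbp3 were the rod genes Cnga1 (distance 0.274), Gngt1 (0.380) and Cngb1 (0.385), which encode subunits of the rod cation channel and of transducin. Nearest to Rdh12 were Rom1 (0.387) and Pde6a (0.394), both of rod outer segments, and Slc24a1 (0.425), the rod exchanger. Rgr was nearest to the photoreceptor transcription factor gene Crx (0.341), Nxnl1 (0.368) and Susd3 (0.400). Rpe65 was nearest to Klc3 (0.190), Gulo (0.303) and Lrtm1 (0.323), and Rrh to Kcna5 (0.210), Six6 (0.245) and Cartpt (0.302). These 5 members were dim in cortex, so their distances rest in part on scatter in the dim range and do not show a shared regulation. For the genes measured well in both tissues the distances were shorter. Rdh5 lay nearest to H2bc14 (0.091), Cdr2 (0.097) and Pacsin2 (0.117), and Rlbp1 to Bbs7 (0.111), Lpcat2 (0.117) and Dhrs3 (0.124), the last a retinal reductase gene. Dhrs7 lay nearest to Glul (0.070), the glutamine synthetase gene of Müller glia, Flcn (0.071) and Cpt2 (0.077), and Stra6 to Hus1 (0.052), Ccdc90b (0.074) and Snrpb (0.083).

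The rest of the retinoid pathway was listed as 44 genes, of which 39 were measured. Of the 39, 10 were higher in retina and 4 lower, 25 did not pass, and the median difference was 0.24. Among all named genes 14.2% were called higher and 14.7% lower, the shares that belong beside this count and those of the lists below. Both tissues lay below the olfactory receptor yardstick for 19 of the 39, and with dim values raised to it 5 were higher and 2 lower. Without normalization 8 were higher and 12 lower.

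Of 9 measured enzymes and exporters of the cycle outside the set, 4 were higher and 0 lower, with a median of 0.90. Abca4, the outer segment transporter that clears retinal from the discs, had a retina mean of 11.71 ± 0.21 and a cortex mean of 8.37 ± 0.45 (SD, n = 5), 3.34 apart (SE 0.25) and 0.59 apart with the dim cortex values raised. Dhrs3, which reduces retinal, was higher by 3.31 (SE 0.065) and Rdh10, which oxidises retinol, by 1.83 (SE 0.13). Awat2, an acyltransferase able to esterify retinol, was called from signal that was dim in both tissues (1.70, SE 0.33), and its difference was 0.01 with dim values raised. The photoreceptor reductase gene Rdh11 was at 0.87 (SE 0.051), Rdh14 at 0.90 (SE 0.060) and Rdh13 at 0.70 (SE 0.11), each short of 2-fold. Rdh8 was not analysed here.

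Of 10 retinoid carriers and carotenoid enzymes, 2 were higher and 1 lower, and 7 did not pass (median 0.31). Of the 10, 6 were dim in both tissues, and the median was -0.03 with dim values raised. Scarb1, a lipoprotein receptor that takes up carotenoids, was higher by 2.25 (SE 0.067). Ttr, transthyretin, the plasma partner of retinol-binding protein, had a retina mean of 18.34 ± 0.05 and a cortex mean of 19.73 ± 0.08 (SD, n = 5), and so was lower (-1.38, SE 0.058). Bco2, a carotenoid-cleaving oxygenase, was called higher (1.01, SE 0.40, limma adjusted p = 0.047) from values that were dim in both tissues and overlapped, and its difference was 0.06 with these raised. Rbp4, the plasma retinol-binding protein that Stra6 receives, was dim in both tissues, at 9.31 ± 1.03 and 8.94 ± 0.61 (SD, n = 5).

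Of 16 genes of retinoic acid synthesis and breakdown, 3 were higher and 3 lower, and 10 did not pass (median -0.69). Of the 16, 11 were dim in both tissues, and the median was -0.03 with dim values raised. Aldh1a1, a retinaldehyde dehydrogenase, had a retina mean of 16.05 ± 0.07 and a cortex mean of 12.32 ± 0.12 (SD, n = 5), 3.73 apart (SE 0.061). Its close paralog Aldh1a7 was higher by 1.61 (SE 0.11), and how far the probes tell these genes apart was not tested. Among the retinoic acid hydroxylase genes, Cyp26a1 was higher by 3.19 (SE 0.27), from values below the yardstick in both tissues, at 11.03 and 7.84, and its difference was 0.06 with dim values raised. Cyp26b1 was lower, with means of 11.44 ± 0.19 for retina and 13.94 ± 0.04 for cortex (SD, n = 5), -2.50 apart (SE 0.088). Aldh1a2 (-1.36, SE 0.34) and Adh1 (-1.10, SE 0.30) were lower from dim values, and each stood at -0.03 with these raised. Of 4 retinoic acid receptor genes, Rarb was higher (1.15, SE 0.26, and 0.34 with dim values raised) and 3 were not called (median 0.15).

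**Figure D3:**
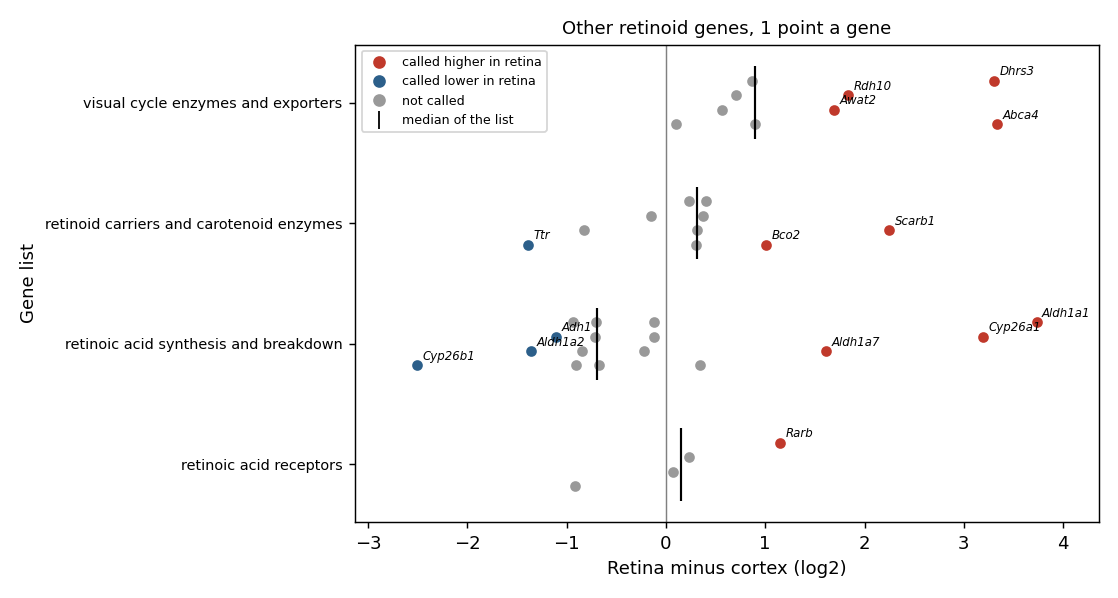
Retina minus cortex difference (log2) of 39 other retinoid genes in 4 lists, 1 point a gene, red where called higher in retina, blue where called lower and grey where not called, with a bar at each list's median. Aldh1a1 is farthest to the right at 3.73 and Cyp26b1 farthest to the left at -2.50, and grey points make up 25 of the 39.

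Other opsins, listed as proteins that bind the chromophore, and the relatives of Dhrs7 were taken as further lists. Of the 5 measured opsin genes outside the set, the cone opsin genes Opn1sw (9.53, SE 0.20) and Opn1mw (7.09, SE 0.15) were higher, by 6.93 and 5.39 with dim values raised. Opn3 was lower from dim overlapping values (-1.31, SE 0.38, and -0.03 with these raised), and Opn4 and Opn5 were dim in both tissues and not called. The median of the opsin list was 0.76, and -0.03 with dim values raised. Of 7 other genes named Dhrs, Dhrs3 was higher by 3.31, more than Dhrs7 at 2.39, Dhrs11 was lower (-1.08, SE 0.10) and 5 were not called. Their median was -0.40, and -0.03 with dim values raised, and 3 of the 7 were dim in both tissues. Above the yardstick in both tissues but short of 2-fold were Dhrs7b at 0.60 (SE 0.047) and Dhrs1 at -0.40 (SE 0.056).

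Markers of the tissues were read beside the members, since several members are known from pigment epithelium or glia and not from neurons. Of 8 measured rod genes 8 were higher in retina (median 10.14), of 6 cone genes 6 were higher (median 7.57), and of 3 cortical neuron genes 3 were lower (median -5.93). With dim values raised these medians were 8.42, 5.67 and -4.92. Of 13 measured pigment epithelium markers outside the set, 7 were higher and 0 lower (median 1.15), 12 were dim in cortex and 6 in both tissues. The median of the 13 was 0.20 with dim values raised. Dct, Krt18, Tyrp1 and Slc16a8 were higher by 5.21, 5.17, 4.23 and 3.20, and by 3.06, 4.55, 1.30 and 0.97 with dim values raised. Gpnmb, Mertk and Pmel were called too (1.88, 1.15 and 2.14), and stood at 0.52, 0.20 and -0.03 with dim values raised, so that 3 of the 7 stayed at or above 2-fold. The defining markers Best1, Tyr and Mitf were below the yardstick in both tissues and not called (-0.14, 0.49 and -0.35). The summed intensity of the 13 was 16.50 to 16.64 (log2) over the retina arrays and 13.32 to 13.65 over the cortex arrays. Without Krt18, the brightest of them, it was 15.36 to 15.44 and 13.03 to 13.46. The 7 called markers were higher in retina as were Rpe65, Rdh5, Rrh and Rgr, the other 6 were not called, and the part of this cell type in the differences of those genes was not tested.

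Of 9 measured Müller glia genes, 6 passed as higher and 3 did not pass in either direction (median 2.97), with Crb1, Abca8a, Car2 and Car14 higher by 7.02, 5.02, 5.02 and 4.90. The 3 not called were above the yardstick in both tissues and short of 2-fold. Apoe was at 0.81 and Vim at 0.32, while Slc1a3 was lower in retina, at -0.84 (SE 0.066). With dim values raised Crb1 was at 3.71, Abca8a at 4.03 and Car14 at 4.41. The summed intensity of the 9 ran from 21.35 to 21.42 (log2) over retina arrays and from 19.70 to 19.89 over cortex arrays. Without Glul, the brightest of them, it was 20.41 to 20.57 and 19.28 to 19.50. The part of this cell type in the differences of Rlbp1 and Rgr was not tested. Of 9 choroid plexus genes, a tissue that also uses Stra6 and Ttr, 5 were higher and 1 lower, and 3 did not pass (median 1.01). Of the 9, 4 were dim in both tissues, and the median was -0.03 with dim values raised. The 3 that did not pass were Sostdc1 at -0.47 (SE 0.069), above the yardstick in both tissues, and the dim Cldn2 at -0.86 and F5 at -0.08. Aqp1 (4.79), Kcne2 (4.39) and Folr1 (1.67) were above the yardstick in both tissues, while Kl (1.01) and Clic6 (1.29) were dim in both and stood at -0.03 and 0.06 with dim values raised. The gene called lower was Ttr, the probe with the highest signal of the list. The summed intensity ran from 19.28 to 19.33 over retina arrays and from 19.70 to 19.92 over cortex arrays, and the direction turned without Ttr, to 18.16 to 18.30 and 15.06 to 15.21. Fibroblast and meninges genes, 8 of 8, were below cortex in retina (median -2.73, each called). With dim values raised 5 of the 8 stayed at least 2-fold lower, and Fmod, Lum and Slc6a13 stood at -0.03, -0.20 and -0.21. The list had summed intensities of 13.71 to 13.93 and 17.03 to 17.09, and their part in the values of Stra6 was not tested.

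**Figure D4:**
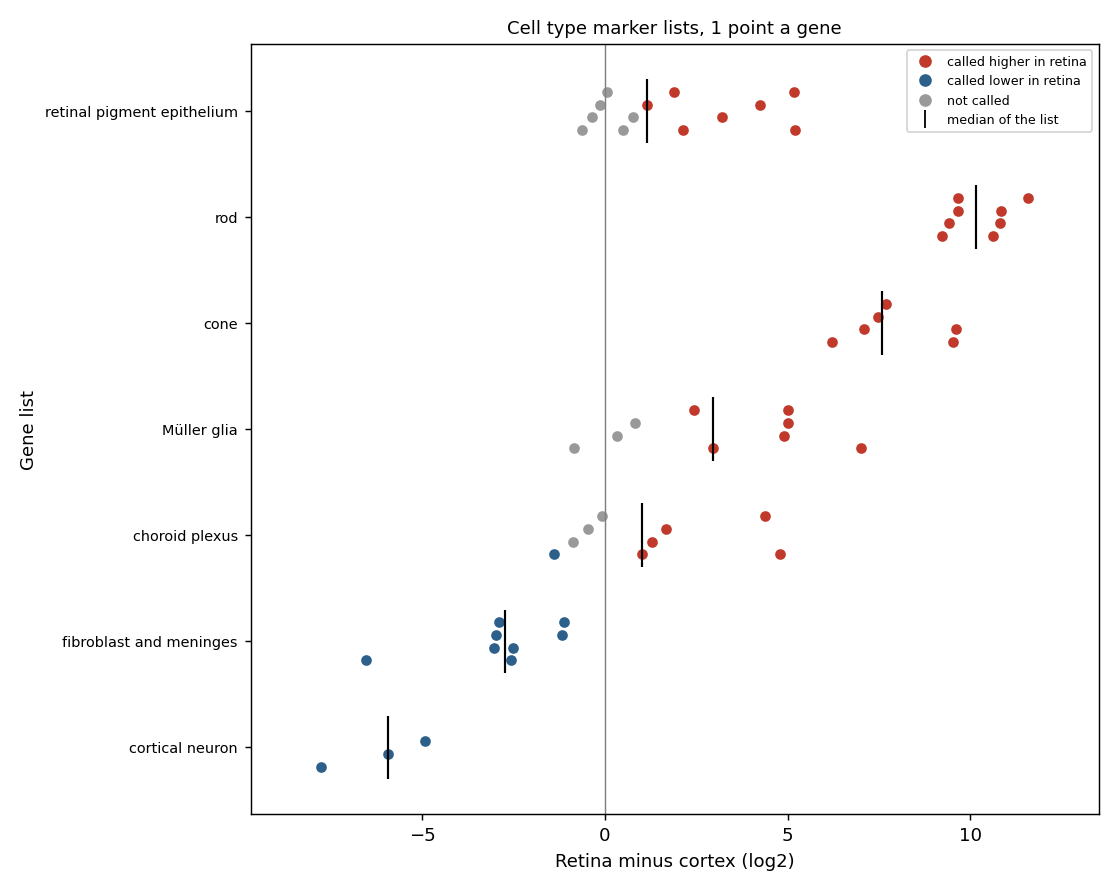
Retina minus cortex difference (log2) of the marker genes of 7 cell types or tissues, 1 point a gene, red where called higher in retina, blue where called lower and grey where not called, with a bar at each list's median. Rod and cone genes lie farthest to the right, with medians of 10.14 and 7.57, and 7 of the 13 pigment epithelium markers are red.

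Before normalization the log2 median of an array averaged 9.80 ± 0.11 for retina and 10.34 ± 0.04 for cortex (SD, n = 5), so retina minus cortex was -0.54 (exact 2-sided permutation p = 0.00794, the smallest that 5 against 5 arrays can give). Without normalization 24.5% of the called probes were higher in retina, against 47.6% with it, and 8 genes of the set were still called higher. Relative to the median of all probes, Rpe65 stood at 6.81 with normalization and 6.86 without.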

How the data were processed

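The intensity values were deposited by the authors as 1 table of 33012 probes and 10 arrays, all above 0. Per the labels' protocols, total RNA was labelled with digoxigenin by in vitro transcription. The scanner software, background correction and detection calls are not given in the sources used here. Of the probes, 14411 had 1 gene symbol, 247 had several and 18354 had none. In lists, a gene with several probes was read from its brightest.

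Values were put on the log2 scale and quantile-normalized, and limma 3.58.1 (R 4.3.3) fitted tissue as the one term on the whole table, with eBayes and its trend option, 2-sided, with no filter on dim probes. SE are limma's after shrinkage. For arrays, their number limits the precision. The scripts were tested on simulated data. Named were every member, its 3 nearest profiles, up to 4 called genes per list and direction, and others whose values a sentence needed, chosen after these were seen. The members and lists were chosen with earlier results of these data known. Alternatives were other scalings (none, median, cyclic loess), an offset of 100 before the log, raised dim values, dim probes left out, no trend, robust eBayes, treat, array weights, a replicate block and each array left out.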

Additional observations from a re-analysis of the deposited data

Results flagged for a closer look

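The 5 arrays of a tissue were checked for a single array far from the other 4, in 106 such groups of named genes, and 6 stood out. At a 95% critical value about 5% do so by chance. None of the 18 groups of the visual cycle genes stood out. Among the other retinoid genes, cortex array 4 gave 13.27 for Dhrs3 against 12.98 to 13.06 elsewhere, and cortex array 3 gave 13.24 for Scarb1 against 12.97 to 12.99. Retina array 3 gave 11.04 for Dhrs11 against 11.26 to 11.34. Among the marker genes, Prph2 was at 10.96 on cortex array 3 against 8.78 to 8.91, Gnat2 at 17.23 on retina array 3 against 17.02 to 17.05, and Col3a1 at 7.21 on retina array 1 against 9.37 to 9.88.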

How the results depend on the processing

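In each of the 21 alternatives the 9 genes kept their direction, and the calls of 8 genes higher and 0 lower held in all of these but treat against a 1.5-fold difference, which added Stra6. The differences of single genes moved with the raising of dim values as given above, and over the 10 fits that left out 1 array they spanned 6.63 to 6.89 for Rpe65 and 0.75 to 0.84 for Stra6. Without normalization 2474 probes of the whole table were higher and 7621 lower, and 12 of the other retinoid genes were lower. With dim values raised to the olfactory receptor level 2196 probes of the whole table were higher and 2360 lower, and 5 of the other retinoid genes were higher and 2 lower; this fit gives values without spread on the dim side, so its p-values are printed for no gene. With dim probes left out 2 of the other retinoid genes were lower. Same-numbered arrays of the tissues were not treated as pairs. Their deviations correlated at -0.020 to 0.029, and 3 of 5 retina arrays correlated best with the cortex array of their own number. Whether same-numbered arrays shared a run was not tested. With the replicate block 4000 probes were higher and 4398 lower, against 3987 and 4392 without it, and 8 genes of the set were called. The mean of all probes of a gene could not differ for the set, as each gene had 1 probe. In the 250 bases before the start alone, TAATCC was in 6.25% of windows. Without detection calls, a level in the dim range is not shown to lie above background.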
